A study of Mus musculus with 12 samples.

Results

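The 10 genes described here carry iron into the cell, store it, send it out, release it from heme, or sense it. They are Tfrc, Slc11a2, Slc11a1 and Steap3 (uptake and movement across vesicle membranes), Fth1 and Ftl1 (storage), Slc40a1 (export), Hmox1 (heme breakdown), and Aco1 and Ireb2 (sensing). They were chosen by symbol from the 55573 rows of the gene count table, and the list was drawn up with the vitamin B12 differences of these data already known. All 10 passed the filter on low counts, which left 19174 genes tested.

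The RNA came from mouse embryonic fibroblasts (MEFs) of C57BL/6 embryos at E13.5. They are i4F cells: all of them, controls included, carry Oct4, Sox2, Klf4 and c-Myc (OSKM) under a doxycycline switch, which returns a share of cells to pluripotency. Cells were held for 72 h in iPSC medium in 4 groups: MEF (no addition), MEF+B12 (2 µM vitamin B12), OSKM (1 µg/ml doxycycline) and OSKM+B12 (both), so that in the induced groups doxycycline itself and the factors it switches on cannot be told apart. Each group held 3 libraries, 1 from each of 3 clones, and a clone stands for the MEFs of 1 independent embryo. Sample titles carry a later year for clone 1 than for clones 2 and 3, so clone and year cannot be told apart. The 12 libraries held between 56971244 and 79236795 counts. Levels are given as CPM (counts per 1000000 counts of the library) after scaling between libraries by the trimmed mean of M values (TMM). Pou5f1, which encodes Oct4, lay between 2.34 and 20.7 CPM in the 6 induced libraries and averaged 0.282 ± 0.248 CPM (SD, n = 3) in MEF and 0.175 ± 0.147 in MEF+B12. Clone 3 was the low one among the induced libraries, with 2.86 CPM of Pou5f1 in OSKM and 2.34 in OSKM+B12, against at least 18.5 in the other clones. Of the 4 OSKM genes, Pou5f1 and Sox2 were higher with induction at an adjusted p under 0.05 (edgeR), with and without B12. Myc averaged 19.2 ± 3.09 CPM in MEF and 39.2 ± 17.2 in OSKM and did not pass (adjusted p = 0.159, edgeR). Klf4 was not higher with induction. It averaged 135 ± 10.1 CPM in MEF and 121 ± 1.97 in OSKM, and 120 ± 1.40 in MEF+B12 and 114 ± 5.57 in OSKM+B12.

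Cells take up iron bound to transferrin through the transferrin receptor, reduce it in endosomes, move it to the cytosol through a divalent metal transporter, and then use it, store it inside ferritin shells or export it through ferroportin. Heme oxygenase opens the heme ring and frees its iron, and macrophages, which clear old red cells, are the cells best known for this route. When iron is scarce the iron regulatory proteins bind hairpins called iron-responsive elements (IREs): a bound hairpin in the 5′ untranslated region (UTR) holds back translation, whereas bound hairpins in the 3′ UTR of the transferrin receptor keep its mRNA from decay.

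The IREs are printed first because they divide the members by how iron could act on their mRNA. The annotated UTRs of GENCODE M21 (mouse genome build GRCm38) were searched on the transcript strand for the loop CAGTGN (N being any base but G), flanked by 5 paired bases on each side, a C just before the 5′ arm of that stem, and at least 4 of 5 further pairs below it. G-T pairs, which are G-U in RNA, were allowed. Each site is 27 bases long, is written 5′ to 3′ as DNA, and has the loop in capitals.
Fth1, 5′ UTR, chr19:9982733-9982759, plus strand: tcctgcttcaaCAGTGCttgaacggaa
Ftl1, 5′ UTR, chr7:45459780-45459806, minus strand: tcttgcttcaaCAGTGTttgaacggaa
Slc40a1, 5′ UTR, chr1:45925466-45925492, minus strand: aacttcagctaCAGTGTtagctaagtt
Tfrc, 3′ UTR, chr16:32631220-32631246, plus strand: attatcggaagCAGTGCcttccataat
Tfrc, 3′ UTR, chr16:32631599-32631625, plus strand: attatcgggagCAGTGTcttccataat
Tfrc, 3′ UTR, chr16:32631664-32631690, plus strand: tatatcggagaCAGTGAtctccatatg
Tfrc, 3′ UTR, chr16:32631711-32631737, plus strand: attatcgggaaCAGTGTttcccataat
The form was rare: 6 of 20916 genes with an annotated 5′ UTR held it (0.0287%), and 7 of 21707 genes with a 3′ UTR (0.0322%). Tfrc alone among those genes held 4 distinct matches. No match of this form was found in the UTRs of the other 6 members, which says only that these letters and pairs are not there.

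Per kilobase of exon, averaged over all 12 libraries, the ferritins stood highest. Ftl1, the ferritin light chain, was at 1531 ± 238 CPM per kilobase (SD, n = 12), Fth1, the heavy chain that oxidizes iron, at 407 ± 78.1, and Hmox1, heme oxygenase 1, at 85.0 ± 25.4. Steap3, an endosomal iron reductase, followed at 29.9 ± 6.98 CPM per kilobase and Aco1, a cytosolic aconitase that becomes iron regulatory protein 1, at 17.3 ± 0.475. Slc40a1, which encodes ferroportin, the iron exporter, was lowest at 2.41 ± 0.575 CPM per kilobase. Between Aco1 and Slc40a1 lay Slc11a1 (11.2 ± 4.13), Ireb2, or iron regulatory protein 2 (8.97 ± 0.645), Tfrc (8.40 ± 4.20) and Slc11a2 (8.18 ± 1.06), and the library ranges of these 4 overlapped each other. The range of Slc11a1 also reached that of Aco1, whereas all other neighbours in this order were separated in range. About the light chain there is a limit: 57.7% of the 31-base words of Ftl1 also occur in other genes, chiefly the processed copies Ftl1-ps1, Gm15590 and Ftl2-ps, so its level is uncertain. Only 3.24% of the words of Fth1 are shared, and none of Tfrc, Hmox1 or Aco1.

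**Figure D1:**
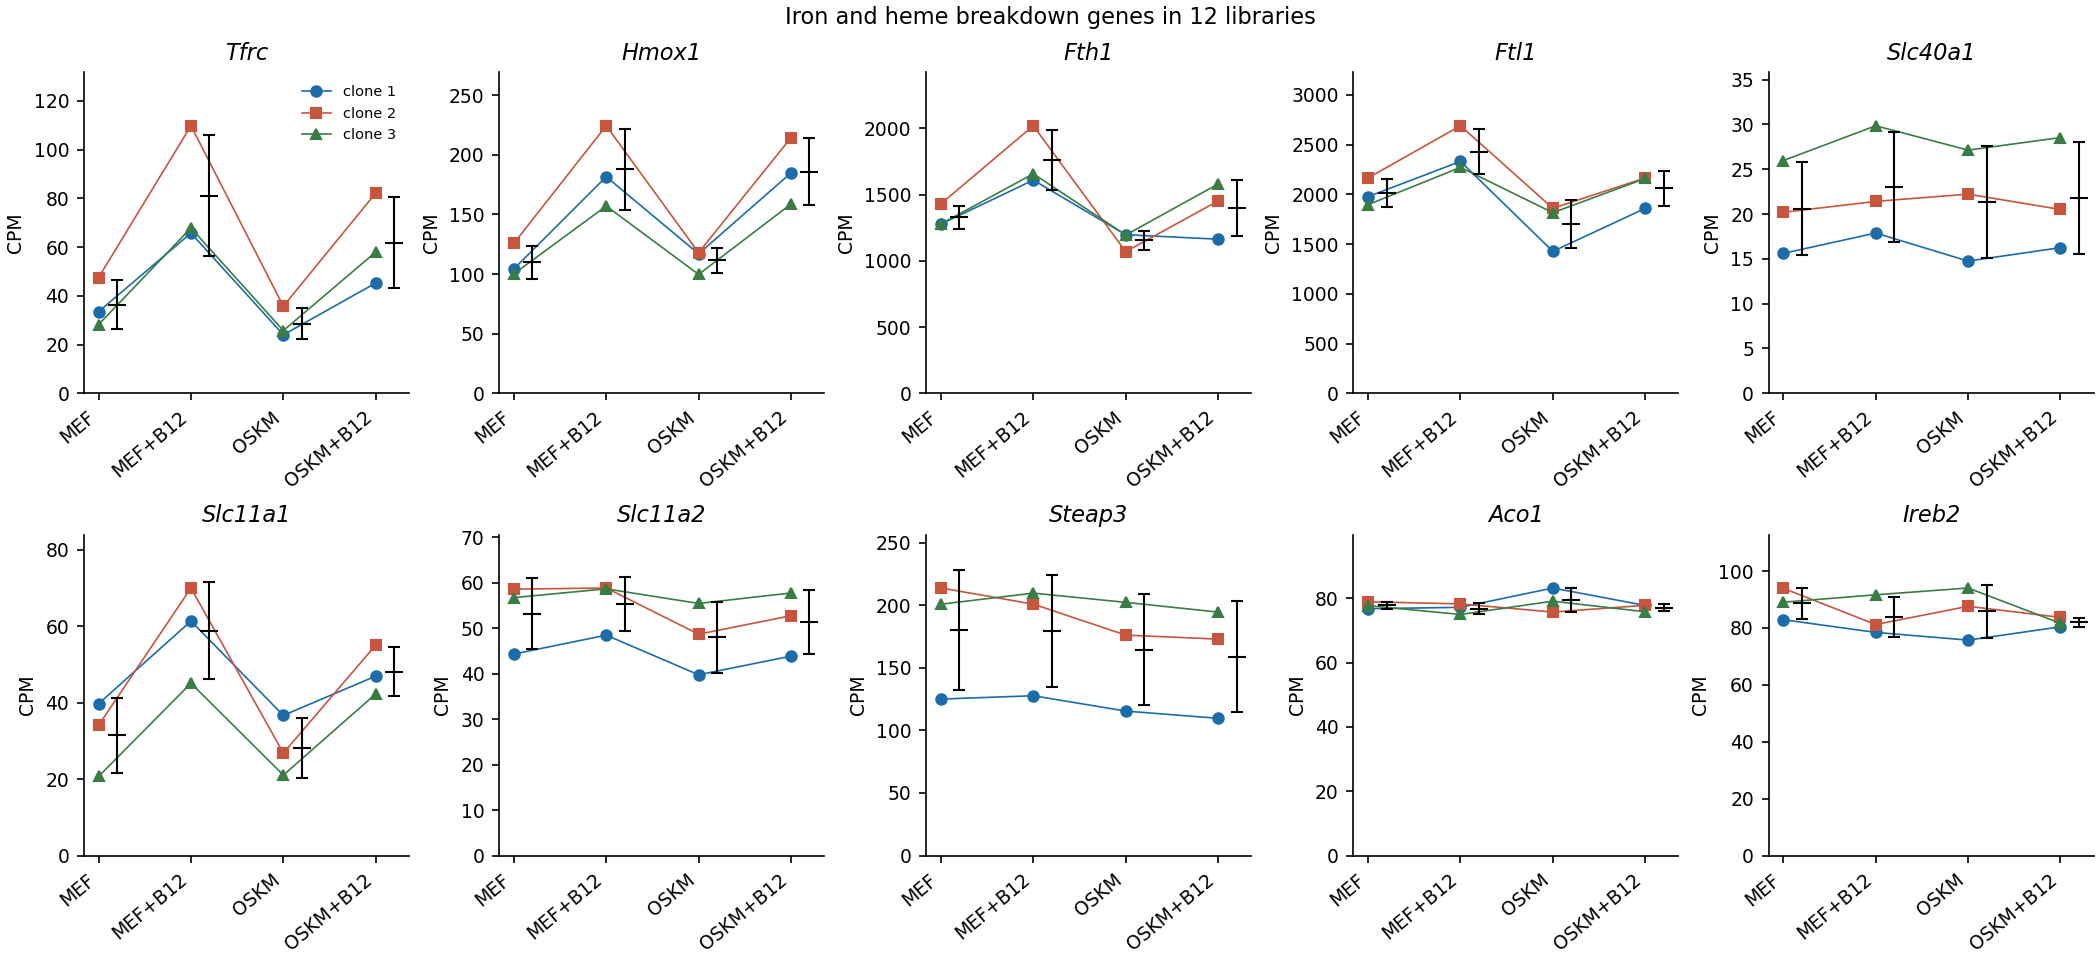
Level of each of the 10 genes, in CPM from 0, in the 4 groups. Points are single libraries joined by clone, and the black bar beside them is the group mean ± SD (n = 3). Tfrc, Hmox1 and Slc11a1 stand higher in every library with B12 than in every library without it in the same state, while Aco1 stays between 75.0 and 83.2 CPM throughout.

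With B12, the transferrin receptor, heme oxygenase 1 and Slc11a1 were higher in both uninduced and induced cultures, and the ferritins were modestly higher. Slc40a1, Slc11a2, Steap3 and both iron sensors stayed close to their levels without B12. Because the list was drawn up with these differences in view, they are given as a description and carry no p-value. Counts of pairs and statements that groups did not overlap are also descriptions, and the share of all genes that did the same is not given. By edgeR's quasi-likelihood test at an adjusted p of 0.05, 3 of the 10 genes were called higher in OSKM+B12 against OSKM (Tfrc, Hmox1 and Slc11a1), where 1.05% of all genes tested were called higher and 0.0156% lower. The same 3 were called higher in MEF+B12 against MEF, where 1.37% of all genes were called higher and 0.00522% lower. In the mean of both B12 comparisons, Fth1 and Ftl1 joined them, making 5 of 10 against 3.46% of all genes called higher and 0.381% lower, and none of the 10 was called lower. The median log2 fold change of the 10 genes in that mean was 0.19, and that of all genes tested was −0.01. The calls leaned on clone 2 and on keeping clone as a term in the fit: without clone 2, or without that term, no member was called in either single B12 comparison and 2 were in their mean. In both settings the calls over all genes in the single comparisons also went to 0. The differences kept their size: over all settings tried, the log2 difference of Tfrc ran from 1.05 to 1.19 in induced and from 1.11 to 1.24 in uninduced cells, and that of Hmox1 from 0.66 to 0.78 and from 0.73 to 0.83.

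Tfrc (ENSMUSG00000022797, chromosome 16, 32608920 to 32632794) encodes transferrin receptor 1 and had the largest difference of the 10. In MEF its level was 33.5 CPM in clone 1, 47.5 in clone 2 and 28.2 in clone 3, and in MEF+B12 it was 65.7, 109.8 and 67.8. In OSKM it was 24.0, 35.7 and 25.7 CPM in the same order, and in OSKM+B12 45.2, 82.2 and 58.0. Every library with B12 was thus above every library without it in the same state, and clone 2 was the highest clone in all 4 groups. Within clones the fold with B12 ran from 1.88 to 2.40. The fitted log2 fold change was 1.14 ± 0.09 (SE) in MEF and 1.10 ± 0.09 in OSKM, and 1.12 ± 0.06 on average. This is the mRNA with 4 of the printed hairpins, in its 3′ UTR.

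Slc11a2 (ENSMUSG00000023030, chromosome 15, 100387898 to 100425072) encodes DMT1, the transporter that moves iron out of the endosome after the receptor has brought it in. It lay between 39.7 and 58.8 CPM, with a mean of 53.2 ± 7.76 CPM (SD, n = 3) in untreated MEFs and 55.3 ± 5.94 after B12, and of 48.0 ± 7.87 under doxycycline alone and 51.4 ± 7.03 with both. The groups overlapped, and although all 6 pairs were higher with B12, the fold ran only from 1.00 to 1.10. Steap3 (ENSMUSG00000026389, chromosome 1, 120190757 to 120272705), the reductase that works beside it, was higher with B12 in 2 of 6 pairs, with a fold between 0.940 and 1.04.

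Slc11a1 (ENSMUSG00000026177, chromosome 1, 74375195 to 74386062), also called NRAMP1, is the sister transporter that macrophages use to pump metal out of phagosomes. In MEF it was 39.7, 34.0 and 20.7 CPM in clones 1, 2 and 3, and in MEF+B12 61.3, 70.0 and 45.1. In OSKM it was 36.6, 26.8 and 21.04 CPM, and in OSKM+B12 46.9, 55.0 and 42.3. The groups with and without B12 did not overlap in either state, but the size of the difference varied more than that of Tfrc: the fold was 1.28 and 1.54 in clone 1 and between 2.01 and 2.18 in clones 2 and 3. The fitted log2 fold change was 0.92 ± 0.13 (SE) in MEF and 0.80 ± 0.13 in OSKM. Without clone 3 it kept its sign and was no longer called in either state.

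Hmox1 (ENSMUSG00000005413, chromosome 8, 75093621 to 75100589) encodes the inducible heme oxygenase. It was 104.3, 125.7 and 100.1 CPM in MEF clones 1, 2 and 3, and 181.7, 224.4 and 157.1 in MEF+B12. In OSKM it was 117.0, 117.9 and 99.7 CPM, and in OSKM+B12 184.9, 214.4 and 158.7. All 6 libraries with B12 lay above all 6 without it, and the fold within clones was narrow, from 1.57 to 1.82. The fitted log2 fold change was 0.76 ± 0.06 (SE) in MEF and 0.73 ± 0.06 in OSKM. Hmox2, the constitutive heme oxygenase, had a log2 difference of 0.13 ± 0.05 on average and did not pass (adjusted p = 0.197, edgeR).

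Fth1 (ENSMUSG00000024661, chromosome 19, 9980598 to 9985098) was 1278, 1431 and 1279 CPM in MEF clones 1, 2 and 3, and 1610.1, 2020.7 and 1658 in MEF+B12. In OSKM it was 1198, 1069.7 and 1195 CPM, and in OSKM+B12 1164, 1453 and 1581. The groups were apart in uninduced cells and overlapped in induced cells, where clone 1 was not higher (fold 0.971) and clones 2 and 3 were 1.36-fold and 1.32-fold higher. Ftl1 (ENSMUSG00000050708, chromosome 7, 45457944 to 45459884) was 1976, 2164 and 1896 CPM in MEF and 2331, 2689 and 2271 in MEF+B12. Under doxycycline it was 1427, 1859 and 1815 CPM without B12 and 1859, 2165 and 2159 with it. Again the uninduced groups were apart and the induced ones met, although Ftl1 was higher with B12 in 6 of 6 pairs, by 1.16-fold to 1.30-fold. Averaged over both states, the log2 fold change with B12 was 0.34 ± 0.07 (SE) for Fth1 and 0.28 ± 0.06 for Ftl1. Summing Ftl1 with its 5 copies that share at least 100 words, a step chosen after seeing the data, gave 0.29. Those copies held between 49.4% and 50.5% of the summed counts in 11 libraries and 46.5% in OSKM clone 1. These are mRNA levels, and the translation that the 5′ hairpins control was not measured.

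Slc40a1 (ENSMUSG00000025993, chromosome 1, 45908068 to 45926523), whose 5′ UTR carries the same kind of hairpin as the ferritins, differed between clones more than between groups. Its 4 libraries from clone 1 lay between 14.7 and 17.9 CPM, those from clone 2 between 20.2 and 22.2, and those from clone 3 between 26.0 and 29.8. The clones did not overlap, and the fold with B12 ran from 0.923 to 1.15. Steap3 too was set apart by clone, with 109.6 to 127.7 CPM in clone 1 and 172.9 to 213.7 in the other clones. With 1 embryo per clone these are descriptions of 3 embryos.

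Aco1 (ENSMUSG00000028405, chromosome 4, 40143081 to 40198338) was the steadiest gene of the 10, with a mean of 77.8 ± 1.08 CPM (SD, n = 3) in MEF and 76.8 ± 1.68 with B12, and of 79.4 ± 3.75 in OSKM and 77.2 ± 1.15 with B12 added. Ireb2 (ENSMUSG00000032293, chromosome 9, 54863789 to 54912530) lay between 75.7 and 94.0 CPM. Each was higher with B12 in 2 of 6 pairs, and their average log2 differences were −0.03 ± 0.03 (SE) and −0.07 ± 0.04.

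**Figure D2:**
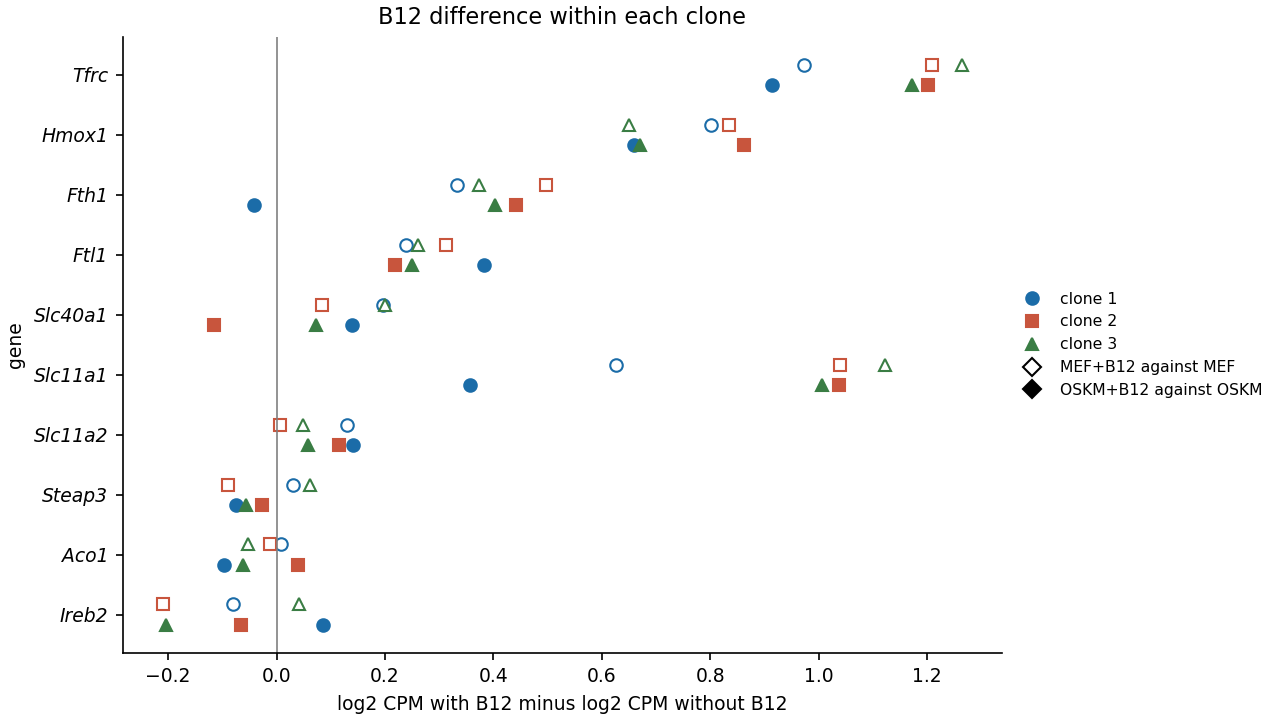
Difference with B12 of each gene within each clone, in log2 CPM on the horizontal axis, for uninduced (open) and induced (filled) cells. Tfrc, Hmox1 and Slc11a1 lie to the right of 0 in all 6 pairs, from 0.36 upward, and Steap3, Aco1 and Ireb2 lie on both sides of 0.

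The difference between both B12 comparisons (B12 in OSKM minus B12 in MEF) was small for every member, from −0.14 ± 0.15 (SE) for Fth1 to 0.04 ± 0.08 for Slc11a2 on the log2 scale. None of the 19174 genes was called in that comparison by edgeR, and 273 had an unadjusted p under 0.05, none of them a member. DESeq2 was not run on it.

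Macrophage markers moved in the same libraries. Of 11 such markers, 10 were called higher in the mean of both B12 comparisons, with a median log2 difference of 0.57 over the list. All were detected, and the exception, Cx3cr1, a receptor of resident macrophages, had a log2 difference of −0.45 ± 0.20 (SE). Their summed level ran from 1263 to 2447 CPM in MEF and from 1912 to 3243 with B12, and from 1295 to 2260.2 in OSKM and from 1989 to 2634 with B12. In bulk RNA, more cells of a type and more RNA per cell cannot be told apart, and the part of macrophages in the differences of the iron genes was not tested. No fibroblast marker (8 tested) and no endothelial marker (3 tested) was called in the mean of both B12 comparisons by edgeR. At an unadjusted p under 0.05 there were 2 and 0, where 2964 of all 19174 genes tested were. Of the 8 fibroblast markers 0 were higher in that mean. Their median log2 difference was −0.11, where that of all genes tested was −0.01. DESeq2 called Thy1, a fibroblast surface protein, lower. The erythroid list summed to at most 2.17 CPM, with Slc4a1, the red cell anion exchanger, at 0 and Epor called higher. Of 8 proliferation genes Mcm5 and Pcna were called higher.

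Within the 6 clone pairs the sum was 1.17-fold to 1.69-fold higher with B12. The fold of Tfrc, of Hmox1 and of Slc11a1 was above that of the sum in 6 of 6 pairs, that of Ftl1 in 1 and that of Fth1, Slc40a1, Slc11a2, Steap3, Aco1 and Ireb2 in none. The sum rested mostly on Lyz2, lysozyme, which averaged 1063 CPM in MEF and had the smallest log2 difference of the 10 called markers (0.43 ± 0.08 on average). Single markers reached the size of Slc11a1 (0.86) and Hmox1 (0.75), as Fcgr1 had 0.95 ± 0.10 and Mrc1 0.86 ± 0.08. None of the 11 reached that of Tfrc (1.12 ± 0.06). The marker sum was highest in clone 1 in every group (2447 CPM against 1675 and 1263 in MEF), whereas Tfrc was highest in clone 2 in every group and Slc40a1 was lowest in clone 1.

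**Figure D3:**
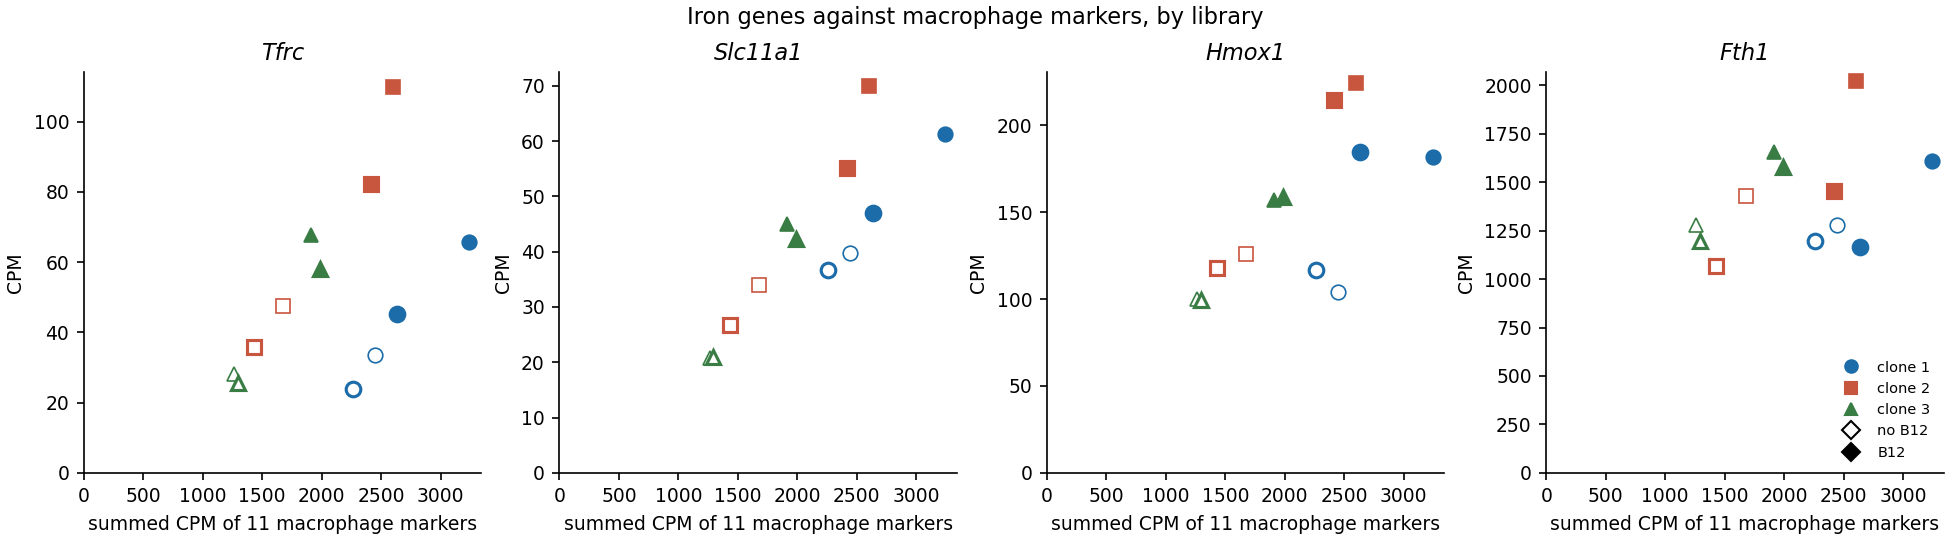
Level of Tfrc, Slc11a1, Hmox1 and Fth1 (CPM, vertical) against the summed CPM of 11 macrophage markers (horizontal) in each library, open without and filled with B12, heavier outlines for induced cells. Within OSKM+B12, clone 1 has a marker sum of 2634 and 45.2 CPM of Tfrc, and clone 2 a sum of 2418 and 82.2 CPM.

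The genes whose pattern was most like that of Tfrc were sought among 9848 named genes at a mean log2 CPM of at least 3, after subtracting each clone's mean. The 5 closest were Inpp5d (Pearson r = 0.995 over 12 libraries), Nrros (0.992), Fyb (0.992), Pik3ap1 (0.991) and Kcnab2 (0.991), with average log2 differences with B12 between 0.56 and 0.84. Inpp5d encodes SHIP1, a phosphatase of blood cells, and Fyb and Pik3ap1 encode adaptors of blood cell signalling. For Hmox1 they were Npl (0.983), Eif3b (0.980), Abcc1 (0.973), Ccl12 (0.972), a chemokine, and Tmem8 (0.971), with average B12 differences between 0.09 and 1.43. For Slc40a1 they were Ndufs3 (0.983), Yrdc (0.903), Ppia (0.890), Txnl1 (0.873) and Casp9 (0.860), with average B12 differences between 0.03 and 0.15. By Spearman rank correlation these 5 genes ran from 0.986 to 1.0 for Tfrc, from 0.762 to 0.811 for Hmox1, and from 0.867 to 0.972 for Slc40a1. Among the members, the closest to Tfrc in the same measure was Slc11a1 (r = 0.976), then Hmox1 (0.923), Ftl1 (0.875) and Fth1 (0.870), while Steap3 (0.171), Aco1 (−0.463) and Ireb2 (−0.432) were not alike. The 12 points share 3 embryos, and these values are descriptions.

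Induction was not used to choose the list, so its comparisons were tested. After 72 h of doxycycline no member passed the threshold in either comparison: 0 of 10 in OSKM against MEF, where 0.0730% of all genes were called higher or lower, and 0 of 10 in OSKM+B12 against MEF+B12, where 0.104% were. In each comparison 4 of the 10 had an unadjusted p under 0.05 by edgeR, where 3641 and 2854 of all 19174 genes tested did. The median log2 difference of the 10 was −0.14 in both, against −0.01 and 0.00 over all genes tested. Tfrc was lower with induction in 6 of 6 pairs. Its log2 difference was −0.35 ± 0.09 (SE) without B12 (adjusted p = 0.159, edgeR) and −0.39 ± 0.09 with B12 (adjusted p = 0.176). DESeq2 called Tfrc and Ftl1 lower without B12, and Tfrc and Fth1 with it. Of all 19174 genes it called 288 lower without B12 and 226 with it.

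The ferritins were also lower in each of the 6 induction pairs. Fth1 had a log2 difference of −0.20 ± 0.11 (SE) without B12 (adjusted p = 0.330, edgeR) and −0.34 ± 0.11 with B12 (adjusted p = 0.191). For Ftl1 the values were −0.25 ± 0.08 (adjusted p = 0.169) and −0.24 ± 0.08 (adjusted p = 0.204). Slc11a2 was lower in 6 of 6 pairs as well, by less (−0.15 ± 0.05 without B12, adjusted p = 0.189, edgeR). The share of all genes that were lower in all 6 induction pairs is not given. For Hmox1 the log2 difference was 0.02 ± 0.06 without B12 (adjusted p = 0.860) and −0.01 ± 0.06 with it (adjusted p = 0.966), and it was lower in 3 of 6 pairs. Slc40a1 and Aco1 each had pairs on both sides of 0, and the remaining members had differences between −0.03 and −0.27 with no adjusted p under 0.186.

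The size of the induction difference varied with the clone. For Tfrc it was −0.48, −0.41 and −0.13 in clones 1, 2 and 3 without B12, and −0.54, −0.42 and −0.23 with B12. For Ftl1 it was −0.47, −0.22 and −0.06 without B12, and −0.33, −0.31 and −0.07 with B12. For Fth1 it was −0.09, −0.42 and −0.10 without B12, where clones 1 and 3 were alike, and −0.47, −0.48 and −0.07 with B12. Clone 3, nearest to 0 for Tfrc and Ftl1 in both comparisons and for Fth1 in the comparison with B12, was the clone with the lowest Pou5f1 and Sox2 when induced (2.33 CPM of Sox2 in OSKM against 13.3 and 15.5). A test of whether the response differed between clones called none of the 10 genes, where 2.15% of all genes were called, and its lowest adjusted p among members was 0.107 (Ftl1, edgeR), the only one with an unadjusted p under 0.05. Without clone 3, Tfrc and Ftl1 were called lower in both induction comparisons, with log2 differences of −0.44 and −0.34 without B12 and −0.48 and −0.32 with it, and 1322 and 1004 genes were called in all.

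**Figure D4:**
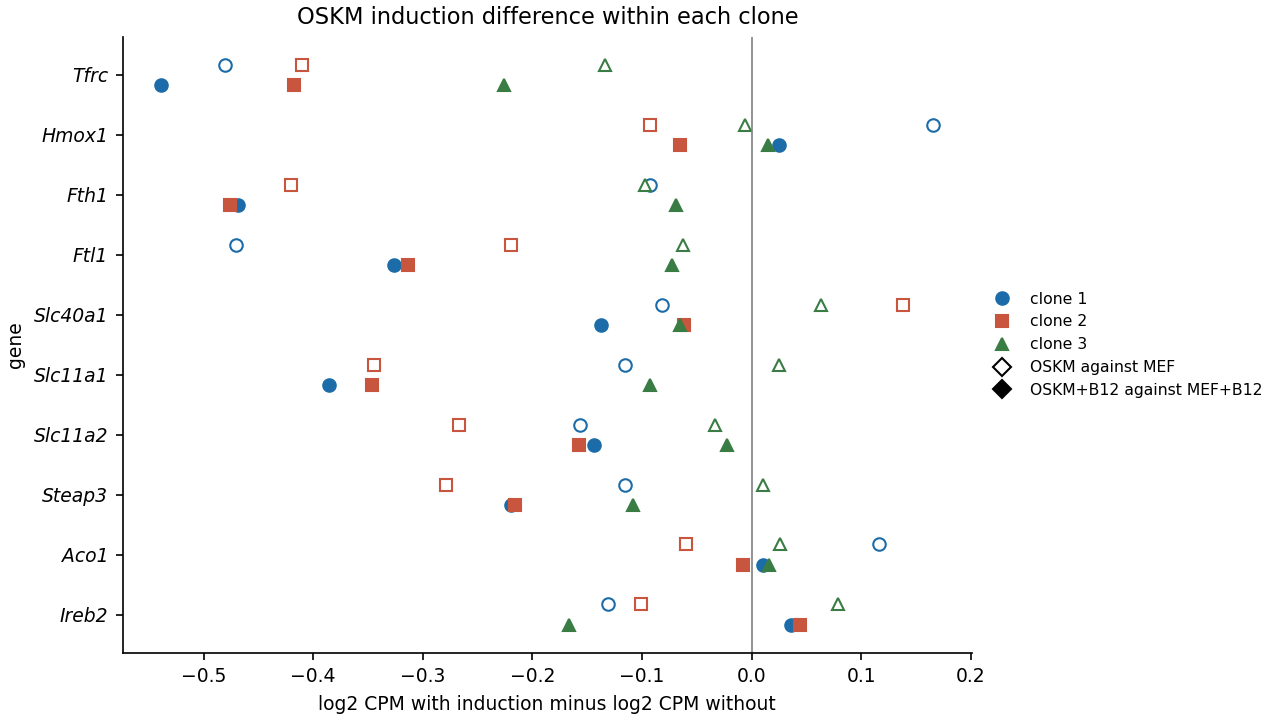
Difference with OSKM induction of each gene within each clone, in log2 CPM on the horizontal axis, without B12 (open) and with B12 (filled). Tfrc, Fth1, Ftl1 and Slc11a2 lie left of 0 in all 6 pairs, and for Tfrc and Ftl1 clone 3 lies nearest to 0 in both comparisons.

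Beyond the 10 members, 76 other genes of iron and heme handling were listed and 69 were tested. These lists too were drawn up with earlier results of the data known, which limits the B12 p-values of their genes. In the mean of both B12 comparisons 4 of the 69 rose and none fell, against 3.46% of all genes called higher. At an unadjusted p under 0.05 there were 18 of the 69, and 2964 of all 19174 genes tested. All 4 called genes belong to the list of heme uptake, transport and breakdown, of which 12 of 13 genes were tested. None was called among 13 tested genes of iron uptake, 2 of export and oxidation, 4 of ferritin handling and IRP control, 4 other genes known for an IRE, 13 of heme synthesis and 21 of mitochondrial iron and iron-sulfur clusters. DESeq2 called Slc39a8 as well.

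Blvra (chromosome 2, 127070665 to 127097084) encodes biliverdin reductase A, which turns the product of heme oxygenase into bilirubin. In clones 1, 2 and 3 of MEF it was 18.8, 20.2 and 18.6 CPM, against 24.4, 28.2 and 24.6 with B12. In OSKM it was 20.7, 19.8 and 18.5 CPM, against 23.7, 24.8 and 23.7 with B12. All 6 libraries with B12 were above all 6 without it. Its log2 fold change was 0.42 ± 0.06 (SE) in MEF (adjusted p = 0.00755, edgeR), 0.29 ± 0.06 in OSKM (adjusted p = 0.0381) and 0.36 ± 0.04 on average (adjusted p = 0.000658). Blvrb, the second biliverdin reductase, rose by 0.27 ± 0.06 on average (adjusted p = 0.0358) and was not called in either state alone.

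Flvcr1 (chromosome 1, 191005847 to 191026158), known as a heme exporter, averaged 12.4 ± 0.572 CPM (SD, n = 3) in MEF and 14.5 ± 0.766 with B12, and 11.3 ± 0.810 in OSKM and 14.6 ± 1.86 with B12 added. It rose by 0.30 ± 0.05 on the log2 scale on average (adjusted p = 0.00811, edgeR) and by 0.37 ± 0.07 in OSKM alone (adjusted p = 0.0458). Slc48a1 (chromosome 15, 97778520 to 97792692), or HRG1, which carries heme out of lysosomes, was at 80.4 ± 5.37 CPM in MEF against 97.0 ± 11.1 with B12, and at 79.1 ± 3.23 in OSKM against 87.2 ± 3.64 with B12. It rose by 0.20 ± 0.04 on average (adjusted p = 0.0115) and by 0.27 ± 0.05 in MEF alone (adjusted p = 0.0379). For neither gene was the difference between both states called (adjusted p = 1.00 for each). These 4 genes moved in the same libraries as the macrophage marker sum given above, and its part in them was not tested. In the mean of both B12 comparisons 0 of the 69 genes were called without clone 2 and 2 without clone 3.

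**Figure D5:**
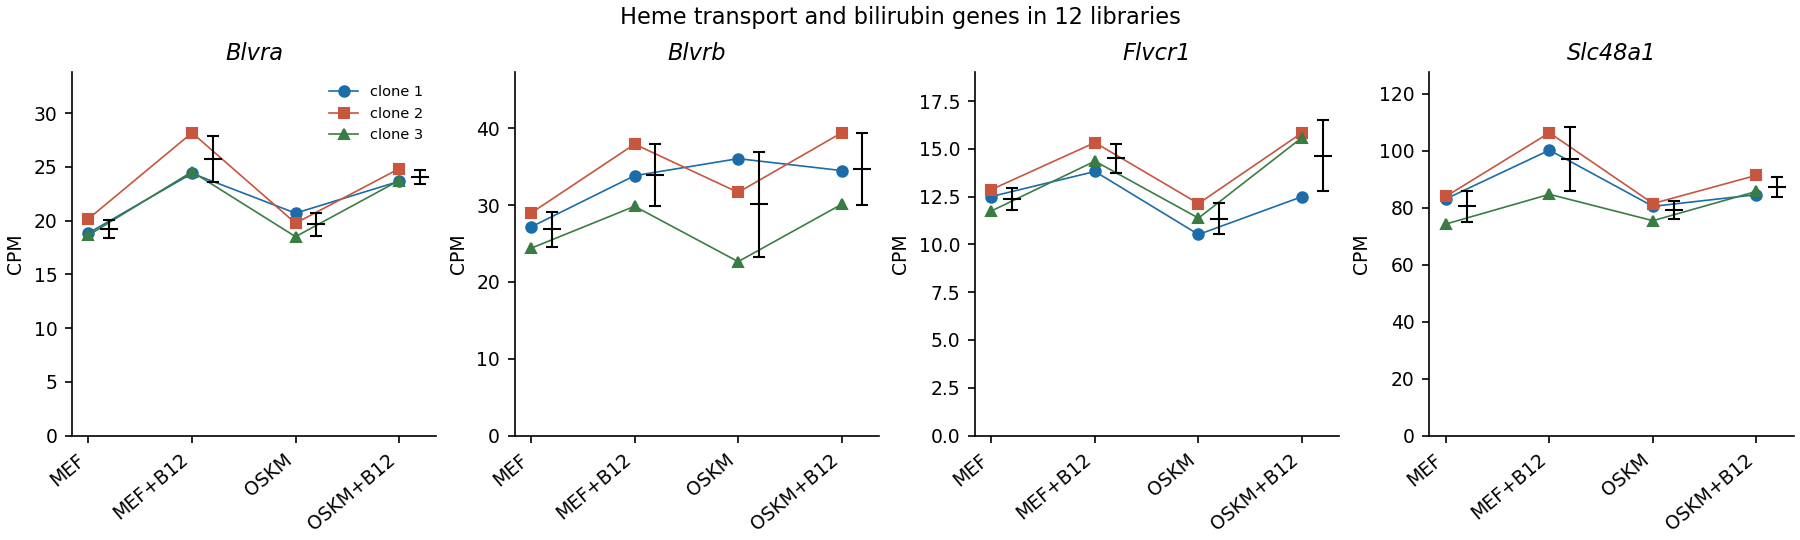
Levels of Blvra, Blvrb, Flvcr1 and Slc48a1, in CPM from 0, in the 4 groups, with libraries joined by clone and the group mean ± SD in black (n = 3). For Blvra every library with B12 is at or above 23.7 CPM and every library without it at or below 20.7.

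In the lists of iron uptake, export and oxidation, ferritin handling, other IRE genes and heme synthesis, the gene with the largest average B12 difference missed the threshold each time. Slc39a8, a zinc and iron importer, had 0.21 ± 0.06 (SE, adjusted p = 0.0777, edgeR), and Heph, which oxidizes iron for export, −0.21 ± 0.06 (adjusted p = 0.132). Abcb6, a porphyrin transporter, had 0.14 ± 0.11 (adjusted p = 0.592), Ncoa4, the receptor that sends ferritin to lysosomes, 0.08 ± 0.03 (adjusted p = 0.276) and Cdc42bpa −0.10 ± 0.04 (adjusted p = 0.281). Of the genes outside the members that held the IRE form, Alas2, Glyat and Ppp1r1b were below the filter, Fbxl14, Slitrk2, Trim23, Zbtb44 and 2010111I01Rik were not called with B12, and Ftl1-ps1, which shares reads with Ftl1, was called (0.28 ± 0.06, adjusted p = 0.0230).

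With induction none of the 69 genes was called in either comparison by edgeR. At an unadjusted p under 0.05 there were 16 without B12 and 13 with it, where 3641 and 2854 of all 19174 genes tested were. DESeq2 called none of the 69 without B12 and Hp, haptoglobin, with it. The largest fitted difference was that of Meltf, melanotransferrin, which held 82 counts over all libraries, with 0.99 ± 0.55 (SE) on the log2 scale without B12 (adjusted p = 0.353, edgeR) and 1.56 ± 0.59 with it (adjusted p = 0.251). Scara5, a ferritin receptor, had 0.80 ± 0.25 (SE) on the log2 scale without B12 (adjusted p = 0.168) and 0.98 ± 0.25 with it (adjusted p = 0.176).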

How the data were processed

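Poly(A) RNA of 12 cultures (4 groups, 3 clones) was made into strand-specific libraries and sequenced. Per the study's methods and the submitters' processing notes, the authors aligned reads to mm10 (GRCm38) with STAR (2.5.2) and deposited raw counts of read pairs per Ensembl gene, made with featureCounts on the reverse strand. Counting left no depth correction in the values, and reads shared by near-identical genes are not resolved.

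The counts were tested with edgeR (4.0.16, R 4.3.3) by the quasi-likelihood test, with TMM scaling (factors 0.934 to 1.06), genes kept by filterByExpr, all 12 libraries in 1 fit, and clone and group as terms. Benjamini-Hochberg adjusted p-values under 0.05 were called. The common biological coefficient of variation was 8.04%. At 56971244 to 79236795 counts per library, counting error and the spread between clones both enter the errors. Clone is the labels' embryo number, shared by all 4 groups: deviations from group means correlated at 0.270 to 0.687 between libraries of the same clone (18 pairs) and −0.510 to 0.170 between clones (36 pairs). Log2 CPM used a prior count of 2. DESeq2 (1.42.0) and other filters, scalings, sample sets and left-out clones were tried as alternatives, and the fits were first tested on simulated data.

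Of 55573 gene rows, 55480 matched GENCODE M21 by identifier, and 131 of 132 listed symbols were found. The named genes were the 10 members, the genes of the other iron and heme lists that were called or had the largest difference, and the OSKM genes. The rule also named the 5 closest genes by correlation to each of Tfrc, Hmox1 and Slc40a1. The other genes with the IRE form, Hmox2, Scara5, and the marker genes singled out were named outside that rule, after their values were seen. One gene that the rule names is not reported here. The members and lists were chosen with earlier results of these data known. Sequence comes from GRCm38.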

Additional observations from a re-analysis of the deposited data

How the results depend on the processing

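Clone was a term in the fit because a clone is 1 embryo. With no replicate block, 0 members were called in OSKM+B12 against OSKM and 0 in MEF+B12 against MEF (3 in each with the block), and 2 in the mean of both (5 with it). The other iron and heme genes went to 0, 0 and 1, from 2, 2 and 4. Over all genes the B12 calls went from 204, 264 and 736 to 0, 0 and 90, and the induction calls from 14 and 20 to 0 and 0. The other counts on members and lists were 0 with and without the block. For members, DESeq2 called 2 in each induction comparison against 0, and 5 in MEF+B12 against MEF. Dropping the filter on low counts gave 2, 2 and 5 there, and 2 for the response differing between clones against 0. Fitting the compared libraries alone gave 5 in MEF+B12 against MEF. Leaving out a clone or OSKM clone 1 gave 0 to 2 members in either induction comparison, 0 to 3 in either B12 comparison, 2 to 5 in their mean and 0 to 2 for the clone response. For the other genes, no filter gave 3 in each induction comparison against 0, DESeq2 gave 1 with B12, and the compared libraries alone gave 0 in OSKM+B12 against OSKM and 6 in MEF+B12 against MEF. Leaving out a clone or that library gave 0 to 9 and 0 to 7 with induction, and 0 to 3, 0 to 3 and 0 to 6 with B12. Of 590 values for single genes, 543 kept their side of the threshold, with the same sign or an uncalled sign change within the SE. Another 21 passed it, 23 missed it, and 3 changed sign by more than the SE without a call. A change of sign with a call in either fit was seen for 0. Over all genes DESeq2 called 487 and 416 with induction and 388, 469 and 934 with B12, and no filter gave 681, 646, 364 and 425 in the single comparisons. At least 10 counts in every library gave 2 and 1 with induction, and the compared libraries alone 4, 6, 108 and 845. Library totals gave 409 in MEF+B12 against MEF. Without clone 2 the counts were 1, 1, 0, 0 and 34, and without clone 3 1322, 1004, 13, 29 and 317, in the order of induction without and with vitamin, then the vitamin effect in induced cells, in uninduced cells and on average. Without clone 1 the induction counts were 1 and 2, and without OSKM clone 1 that without vitamin was 5. The response differing between clones was called for 413 genes, 1257 without the filter, and 0 (without clone 3) to 838 with a clone or OSKM clone 1 left out. Causes of these changes were not tested. The parts of depth and of spread between embryos in the errors were not separated.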
